A study of Homo sapiens with 6 samples.

Results

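The genes described here encode the cullins, the F-box and KLHL substrate adaptors and the TRIM ligases, and the measurements are the intronic RNA stretches that stayed bound and protected from nuclease in purified Rbfox1 complexes. A gene was taken when a row of either deposited cluster list named it alone and its name began with CUL, FBXW, FBXL, FBXO, KLHL or TRIM followed by a digit. This gave 116 genes of 11805 named in the lists, with 3324 clusters in the WT list and 1674 in the F125A list. They made up 0.91% of the 366429 WT clusters (95% exact binomial interval 0.877% to 0.938%) and 0.89% of the 188027 F125A clusters (0.848% to 0.934%). A cluster is a stretch of a protein-coding intron that the authors called from the protected reads, and the lists give its place, strand and gene but no read count.

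All libraries came from HEK293 Flp-In cells, which derive from human embryonic kidney, and from a single derivative labelled Rbfox2 KO#7, in which the gene Rbfox2 is knocked out. The WT group carried a FLAG-Rbfox1(WT) transgene (3 libraries), the F125A group a FLAG-Rbfox1(F125A) transgene (2 libraries), and a Control without transgene (1 library) was not analysed here. Cells were grown in DMEM with serum and harvested near confluence, and no promoter of the transgenes is named in the sources used here. Each group has 1 list, so the 2 lists have no replicate error: intervals below cover counting error only, no p-value is given, and differences between lists describe these lists and not the conditions.

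As background, a cullin is an elongated scaffold that holds a RING protein, RBX1 or RNF7, at one end and a substrate adaptor at the other. CUL1 binds F-box proteins through SKP1, with FBXW, FBXL and FBXO naming F-box proteins that have WD40 repeats, leucine-rich repeats or other domains, and CUL3 binds BTB proteins such as the kelch-repeat KLHL family directly. TRIM proteins carry their own RING, B-boxes and coiled coil and act without a cullin. Rbfox1 is a splicing factor whose RNA recognition motif binds GCAUG, the F125A change replaces a phenylalanine of that motif, and LASR is the large assembly of splicing regulators, among them proteins that bind runs of G, with which Rbfox proteins are purified from nuclei.

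Sequence was at hand only where a cluster lay over the 250 bases before an annotated start site of its own gene, since no genome was used. Such windows usually belong to an alternative start inside the gene, so an intronic cluster can cover them. Of the 116 genes, 93 had an entry (145 windows), and 11 of 2981 WT clusters (0.369%, 0.184% to 0.659%) and 10 of 1480 F125A clusters (0.676%, 0.324% to 1.24%) of these genes lay over one, in 8 genes together. Over all genes the shares were 0.237% and 0.415%. The covered stretches are printed 5′ to 3′ on the gene's strand (RefSeq GRCh38.p14), because they show which bases the protein complexes protected. For KLHL26 and TRIM32, which had 2 separate stretches each, the one nearer the start site is shown. Stretches end at the edge of the window, and clusters of FBXO17, KLHL26 and TRIM32 ran on beyond it. Capitals mark bases under clusters of both lists.
FBXO17, chr19:38952691-38952937 (minus strand): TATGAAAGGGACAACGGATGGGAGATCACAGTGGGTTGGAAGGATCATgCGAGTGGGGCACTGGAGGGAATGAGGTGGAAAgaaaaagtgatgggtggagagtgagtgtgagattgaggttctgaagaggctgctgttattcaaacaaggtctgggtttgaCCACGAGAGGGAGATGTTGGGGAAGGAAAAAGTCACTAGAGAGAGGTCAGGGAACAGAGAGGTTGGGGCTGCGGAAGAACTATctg
FBXO7, chr22:32475143-32475233 (plus strand): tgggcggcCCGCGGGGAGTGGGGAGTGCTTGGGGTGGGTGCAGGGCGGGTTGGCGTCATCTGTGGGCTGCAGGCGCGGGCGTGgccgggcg
FBXO11, chr2:47888732-47888838 (minus strand): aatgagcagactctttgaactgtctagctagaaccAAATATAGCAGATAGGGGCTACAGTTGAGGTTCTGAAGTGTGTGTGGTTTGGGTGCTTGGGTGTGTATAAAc
TRIM32, chr9:116687487-116687568 (plus strand): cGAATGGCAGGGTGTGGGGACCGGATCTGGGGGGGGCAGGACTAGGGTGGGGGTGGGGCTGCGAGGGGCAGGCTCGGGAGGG
KLHL26, chr19:18644584-18644637 (plus strand): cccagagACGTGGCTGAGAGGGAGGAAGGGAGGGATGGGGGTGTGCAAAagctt
CUL2, chr10:35074429-35074499 (minus strand): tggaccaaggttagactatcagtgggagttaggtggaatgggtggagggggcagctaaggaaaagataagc
CUL4B, chrX:120559903-120559971 (minus strand): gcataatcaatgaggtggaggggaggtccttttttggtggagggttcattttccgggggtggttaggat
FBXW7, chr4:152382662-152382705 (minus strand): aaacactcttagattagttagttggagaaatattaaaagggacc

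In 5 of the 8 genes WT and F125A clusters shared bases of the window: 75 of 91 covered bases in FBXO7, 71 of 107 in FBXO11, 81 of 137 in TRIM32 and 42 of 103 in KLHL26. In FBXO17, which encodes a glycoprotein-binding F-box protein, 4 WT and 3 F125A clusters together covered all but 3 bases of the window, and 163 of 247 covered bases were under clusters of both lists. The FBXO17 window lies 23.1 kb inside the gene, within the 5-kb window that held most F125A clusters of that gene. The stretches of CUL2, which serves the VHL adaptor, and CUL4B, which works through DDB1, had an F125A cluster only, and that of FBXW7 a WT cluster only.

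The protected bases were richer in G than the rest of the same windows. Over the 8 windows G made up 42.9% of 869 covered bases and 27.6% of 1131 other bases, while C made up 13.2% and 19.6%. GGG occurred 9.21 times per 100 covered bases and 2.74 times per 100 other bases, counting overlapping matches on the gene's strand. On the opposite strand it occurred 0.23 and 0.35 times per 100 bases. The G share was higher under the clusters in 8 of 8 windows, but FBXO17 had only 3 uncovered bases and FBXW7 differed by little (20.5% against 18.9%). This was also the pattern of all genes: over 656 windows with a cluster G made up 45.8% of covered and 32.6% of other bases, and was higher under clusters in 579 of 655 windows (88.4%). GGG is in 94.7% of all 35116 windows on the gene's strand and in 99.0% on either strand. It was in the window part of all 11 WT and 10 F125A window clusters of the ligase genes, against 84.6% and 87.8% of the window clusters of all genes.

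**Figure D1:**
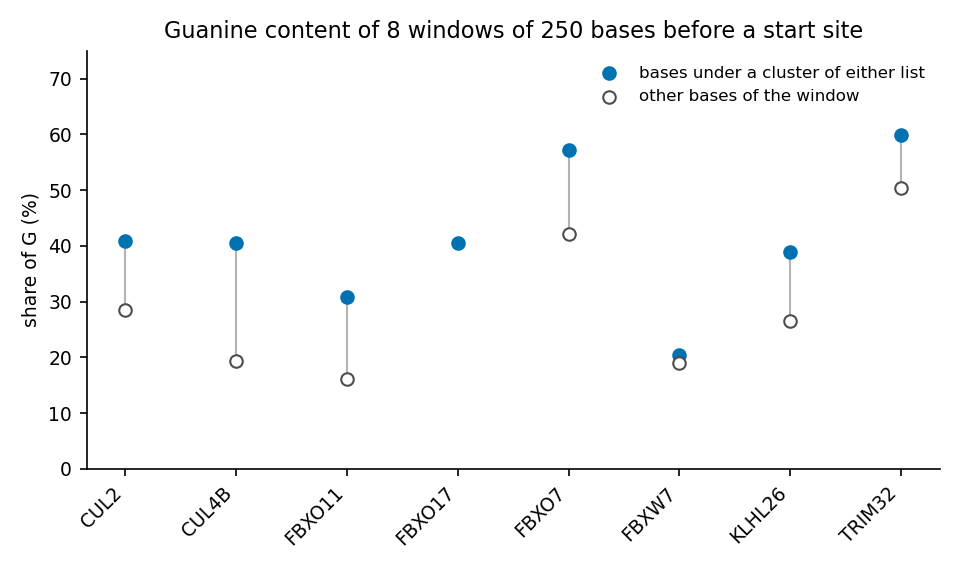
Share of G (%) in bases under a cluster of either list (filled) and in the other bases (open) of the 8 windows of 250 bases before a start site. The filled point is above the open one in each gene with both points, by least in FBXW7, and FBXO17 has no open point because only 3 of its bases were uncovered.

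The Rbfox motif was searched in the same windows as GCATG, which can share its first or last G with a GGG. It is in 16.5% of all windows on the gene's strand and in 25.1% on either strand, and in 26 of the 145 windows of the ligase genes on either strand (17.9%). The clusters were searched on the gene's strand only, and only in the part inside the window. Some clusters of FBXO17, TRIM32 and KLHL26 lay partly outside, such as a WT cluster of TRIM32 with 15 of its 72 nt inside. On the opposite strand the covered bases of the 8 windows held 3 matches. Among the searched parts of the 21 clusters of the ligase genes GCATG occurred in 1, a WT cluster of KLHL26 that no F125A cluster overlapped. Its sequence is printed with GCATG in capitals.
KLHL26, chr19:18644424-18644472 (plus strand): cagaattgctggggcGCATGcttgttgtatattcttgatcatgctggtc
Over all genes, GCATG was in the window part of 49 of 188 WT window clusters without an F125A partner (26.1%, 19.9% to 33.0%) and of 18 of 537 with one (3.35%). Among F125A window clusters it was in 1 of 118 without a WT partner (0.85%) and in 15 of 527 with one (2.85%). A match describes the letters of a window and is not a measured binding site.

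TRIM11 gave the only other printable sequence. Of 9 annotated microRNA hairpins lying inside 9 of the ligase genes on the same strand, 1 had a cluster, an F125A cluster of 39 nt at chr1:228397088-228397126 (minus strand) in the host gene TRIM11. It covered bases 1 to 17 of the mature microRNA of that hairpin, whose seed (bases 2 to 8) is in capitals, and no WT cluster lay on it.
hsa-miR-6742-5p, chr1:228397083-228397104 (minus strand): aGUGGGGUgggacccagcuguu

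All 8 cullin genes had clusters in both lists, whereas each other family had genes without a cluster. RefSeq lists 185 protein-coding genes of these names, of which 69 had no cluster in either list that named them alone. Clusters that name several genes were not counted, so a gene among the 69 may still share one. TRIM6, TRIM34 and TRIM39, spanned by the read-through names given below, are among the 69. The share of all RefSeq protein-coding genes with a cluster is not given here, so these counts have no background beside them. Clusters were found in 8 of 10 FBXW, 14 of 17 FBXL, 26 of 36 FBXO, 25 of 37 KLHL and 35 of 77 TRIM genes. Of the 116 genes, 104 were in both lists, 9 had WT clusters alone (7.76%) and 3 had F125A clusters alone (2.59%). Over all 11805 genes these shares were 9.70% and 2.15%. The 10 genes with most clusters held 37.4% of WT clusters of the set and 38.6% of F125A clusters, 13 genes had more than 100 clusters, and 16 had only 1 or 2. Every cluster lay inside its gene's annotated bounds. The read-through names, TRIM39-RPP21 and TRIM6-TRIM34, satisfied the name rule with 1 WT cluster each, and their reads cannot be told from those of the genes they span. Gene expression was not measured, and in a bulk extract fewer cells with a transcript and less RNA per cell cannot be told apart.

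The markers fixed for the line were found at 4 of 5 genes with 201 WT and 76 F125A clusters, SOX2 having none and CDH2 most (151 and 56). Markers of liver, erythroid, blood, muscle and brain cells were found at 3 of 9 genes with 69 WT and 16 F125A clusters, nearly all in SYT1 (67 and 15), while ALB, APOB, HBB, CD3E, MYH7 and GFAP had none.

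Cluster numbers were compared as log2((WT + 1)/(F125A + 1)) minus 0.96, the log2 of the ratio of the list totals (1.95), so that 0 means the ratio of the whole lists. This was done where WT and F125A clusters of a gene summed to 20 or more. That held for 63 of the 116 genes, and the 53 left out held 268 of the 3324 WT clusters. The median over the 63 genes was -0.05 (interval -0.17 to 0.08) and the quartiles were -0.29 and 0.18. Over all 5626 genes the median was -0.04 with quartiles of -0.36 and 0.26. Of the 63 genes, 29 lay above 0 and 34 below.

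A single ligase gene, FBXL17, reached a 2-fold ratio toward WT (1.59% of 63), against a background of 2.51% of all genes. Its log2 ratio of 1.07 fell short of 2-fold when clusters closer than 50 nt were merged (0.98), with 5 added to each count (0.99) and after correction for length (0.65). No ligase gene reached 2-fold toward F125A, against a background of 1.99%. The 95% counting interval of the ratio excluded 0 in 5 genes (7.94%), against a background of 10.2%: FBXL17, FBXW8 and TRIM44 above 0 (background 5.85%) and FBXO17 and KLHL15 below (background 4.37%). These shares are near or under those of all genes.

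**Figure D2:**
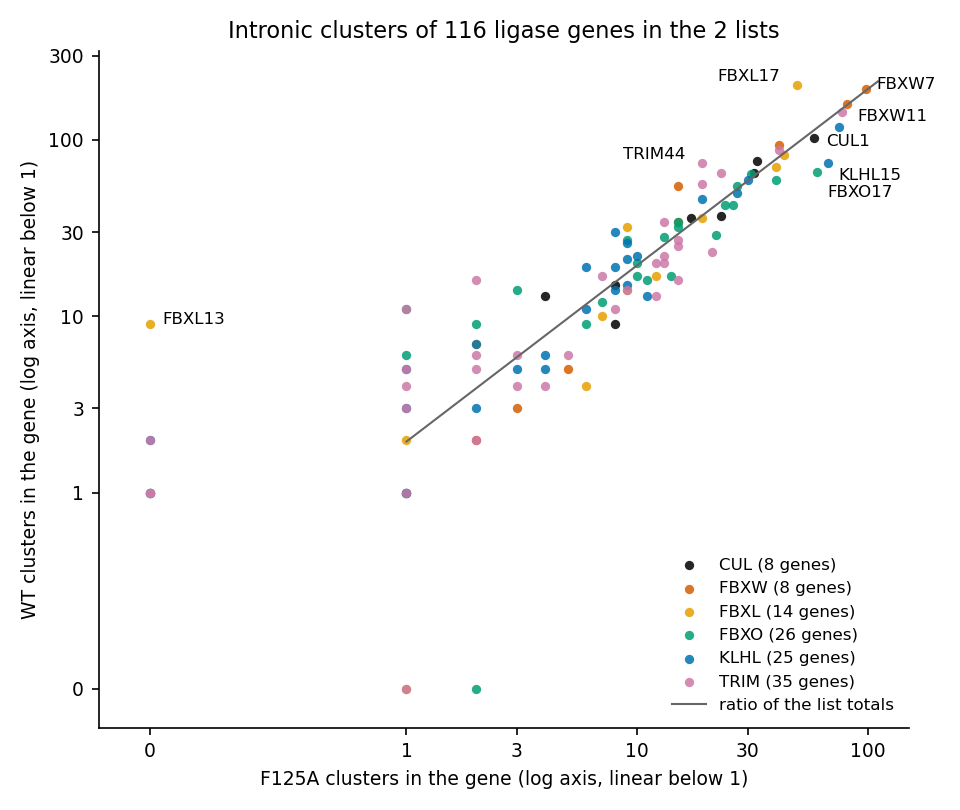
WT clusters (vertical) against F125A clusters (horizontal) of each of the 116 genes, on axes that are logarithmic above 1 and linear below it, coloured by family; points of equal counts coincide. The line marks the ratio of the list totals, 1.95; most points with many clusters lie along it, FBXL17 and TRIM44 lie above it, and FBXO17 and KLHL15 lie below it.

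Among the cullins, the scaffolds of these ligases, the log2 ratios of the 6 genes tested ran from -0.30 to 0.22 with a median of -0.05, 3 on each side of 0 (1 above 0 with 5 added or after correction for length). CUL1, the scaffold of the F-box ligases (chr7:148697756-148801110), had 103 WT and 58 F125A clusters and a log2 ratio of -0.14 (-0.61 to 0.36). CUL3, the scaffold of the KLHL ligases (chr2:224470150-224585363), had 76 and 33 (0.22, -0.37 to 0.88), and CUL5, which works with elongins and SOCS-box proteins (chr11:108008898-108107761), had 65 and 32 (0.04, -0.57 to 0.72). The intervals of all 3 overlap and include 0. CUL2 had 36 and 17 clusters, CUL4A 37 and 23, and CUL4B 15 and 8, whereas CUL7 (9 and 8) and CUL9 (13 and 4) fell short of 20. Of the 8 F125A clusters of CUL4B, 50% overlapped a WT cluster, the lowest share among the 63 genes.

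The FBXW genes had the most clusters for their number, 546 WT and 260 F125A in 8 genes, and their 3 largest had ratios near 0. FBXW7, which binds phosphorylated cyclin E, MYC and NOTCH (chr4:152320544-152536092), had more clusters than any other ligase gene, 193 WT and 98 F125A, at a log2 ratio of 0.01 (-0.34 to 0.38). FBXW11, an adaptor for phosphorylated beta-catenin and I-kappa-B, had 160 and 81 and also a ratio of 0.01 (-0.37 to 0.42). FBXW4 had 94 and 41 (0.21, -0.31 to 0.80). All 5 FBXW genes tested lay above 0, with a median of 0.17, against 46.5% of all genes tested. FBXW7 and FBXW11 turned below 0 with 5 added to each count (both -0.02) and after the correction for length described further on (-0.20 and -0.12), which left 3 of 5 above 0 in each case. FBXW8, an F-box protein that pairs with CUL7, was the furthest from 0 among them, with 55 WT and 15 F125A clusters and a ratio of 0.84 (0.07 to 1.84). In FBXW8, 25.5% of the WT clusters had an F125A partner, and 14 WT clusters in a row had none.

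Among the FBXL genes, FBXL17 had the highest ratio and the most clusters. FBXL17, an adaptor in the quality control of BTB protein dimers, is the longest of the 116 genes (chr5:107859035-108382098, minus strand, 523 kb). It had 204 WT and 49 F125A clusters and a log2 ratio of 1.07 (0.64 to 1.58). Of its F125A clusters 89.8% overlapped a WT cluster. Of its WT clusters 23.5% overlapped an F125A cluster, and up to 16 WT clusters in a row had no partner. With 49 F125A clusters beside 204 WT clusters, a low WT share follows largely from the counts. Its densest 5-kb window lay about 100 kb from the start and was the same in both lists, with 14 WT and 8 F125A clusters. FBXL20 had 82 and 43 clusters (-0.05, -0.58 to 0.54) and FBXL4, a regulator of mitophagy receptors, 70 and 40 (-0.17, -0.74 to 0.44). FBXL2 had 32 and 9 (0.76, -0.23 to 2.12), and each of its 9 F125A clusters overlapped a WT cluster. The median of the 7 FBXL genes tested was -0.08, with 2 above 0 and 5 below. FBXL13 was the one ligase gene with at least 5 clusters that was in a single list, with 9 WT clusters over 264 kb and no F125A cluster. Against an assumed floor of 3 clusters this is 1.54-fold higher in WT after the ratio of the list totals. FBXL13 fell short of the minimum of 20 clusters, and the lower end of its counting interval was a log2 ratio of 0.02. At any number of clusters, 7.76% of the 116 genes and 9.70% of all genes had WT clusters alone.

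In the FBXO family the median of 15 genes tested was -0.15, with 6 above 0 and 9 below, and after correction for length it was 0.02 with 8 above 0. FBXO17 (chr19:38941401-38975742, minus strand, 34.3 kb), whose sequence is printed above, had the most clusters per length of the genes tested, 36.7 per 10 kb against a median of 9.69 for the 63 genes. It had 66 WT and 60 F125A clusters, nearly equal numbers from lists of unequal size, and a log2 ratio of -0.83 (-1.35 to -0.30). Its clusters covered 13.02% of the gene in the WT list and 13.3% in the F125A list, and 84.8% of its WT and 83.3% of its F125A clusters had a partner. FBXO11, an adaptor for BCL6, had 59 and 40 clusters (-0.41, -1.01 to 0.21), and FBXO34 had 64 and 31 (0.06, -0.56 to 0.75).

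The KLHL genes divided evenly, 7 of 14 above 0 and 7 below, with a median of 0.05, or 0.17 with 10 above 0 after correction for length. KLHL29 had the most clusters, 118 WT and 75 F125A, and a log2 ratio of -0.32 (-0.74 to 0.13) although it is 323 kb long. KLHL15, an adaptor for the DNA end-resection protein CtIP (chrX:23983720-24027186, minus strand, 43.5 kb), had 74 and 67 clusters and a ratio of -0.82 (-1.32 to -0.32). Like FBXO17 it was dense, with 32.4 clusters per 10 kb, and 21 of its F125A and 18 of its WT clusters lay in one 5-kb window between about 3 and 8 kb from the start. KLHL13, part of the ligase that acts on Aurora B, had 59 and 30 (-0.01, -0.64 to 0.70). KLHL3, the adaptor for WNK kinases, had 30 and 8 (0.82, -0.21 to 2.28), and 23.3% of its WT clusters had a partner, the lowest share of the 63 genes.

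The 16 TRIM genes tested had a median of -0.20, with 6 above 0 and 10 below, but after correction for length the median was 0.06 with 11 above 0. TRIM33, a chromatin-binding regulator of SMAD4 (chr1:114392790-114511203), had 143 WT and 77 F125A clusters (-0.08, -0.48 to 0.35). Its relative TRIM24 had 88 and 41 (0.12, -0.41 to 0.71). TRIM44, which lacks the RING (chr11:35662775-35818007, plus strand, 155 kb), had 74 and 19 clusters and a ratio of 0.94 (0.26 to 1.81). All 19 F125A clusters of TRIM44 overlapped a WT cluster, whereas 25.7% of its WT clusters had an F125A partner. The low end was made of short genes: TRIM65, which ubiquitinates the RNA sensor MDA5, had 16 and 15 (-0.88, -1.98 to 0.25), TRIM27 13 and 12 (-0.86, -2.10 to 0.41) and TRIM11 23 and 21 (-0.84, -1.75 to 0.09). TRIM11 had 33.4 clusters per 10 kb, with 18 of each list in one 5-kb window.

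**Figure D3:**
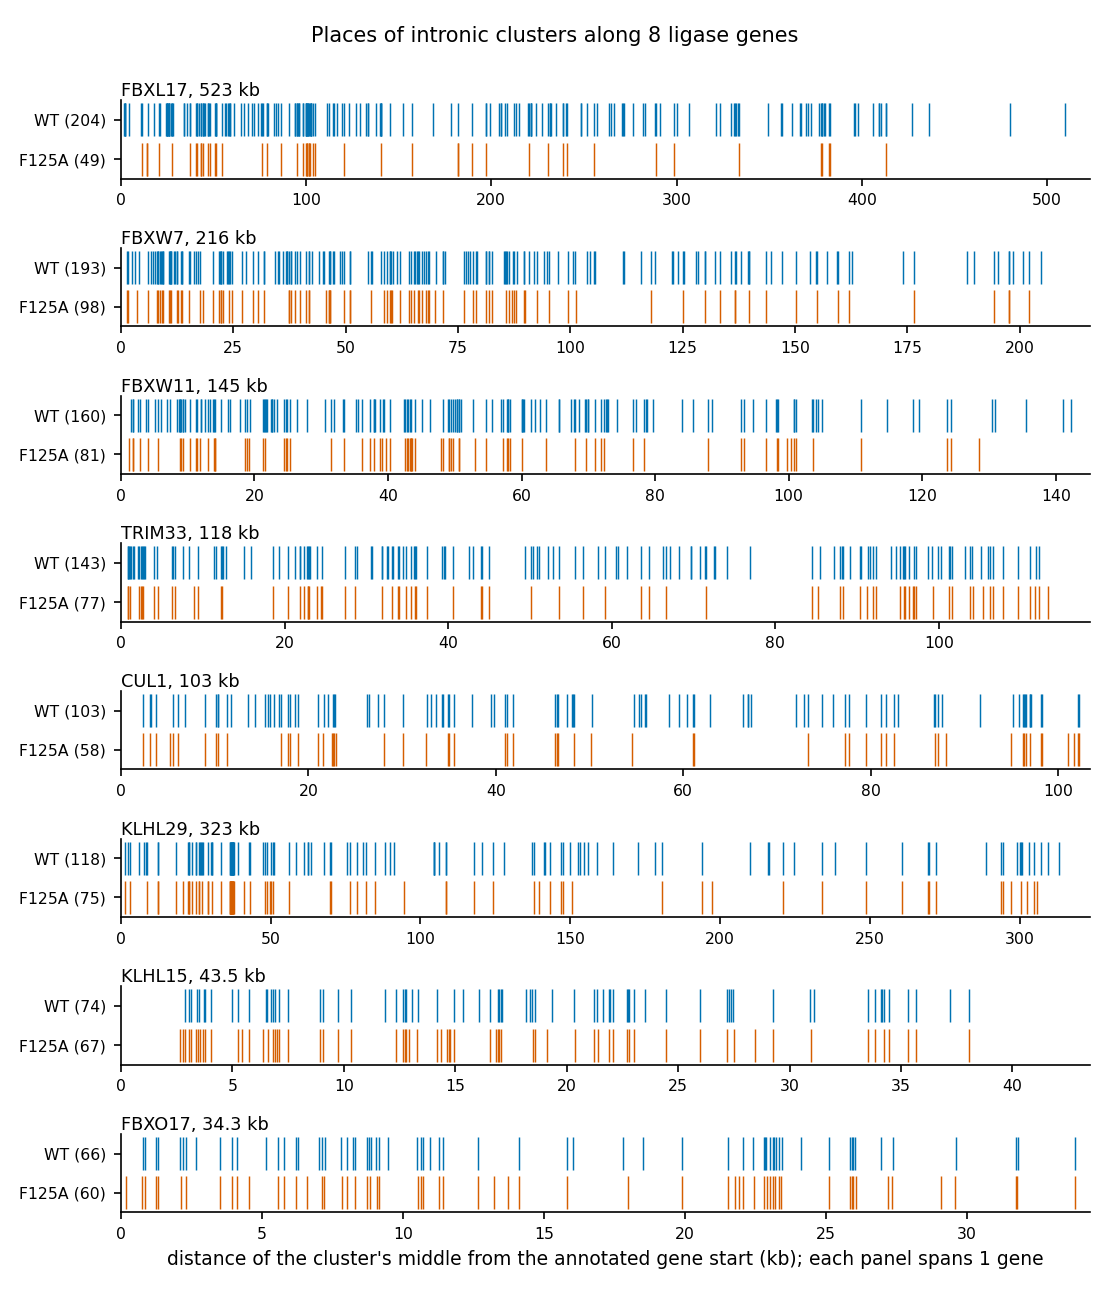
Middle of each cluster (tick) along 8 ligase genes, as the distance from the annotated gene start in kb, with WT clusters above F125A clusters and each panel scaled to its own gene; the number of clusters stands at the left. FBXL17 shows long stretches with WT ticks only, whereas in KLHL15 and FBXO17 the 2 rows have nearly equal numbers and largely the same places.

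The 2 lists overlapped in the ligase genes as much as elsewhere. Of the F125A clusters 86.2% (84.5% to 87.8%) shared at least 1 nt with a WT cluster on the same strand, against 85.5% of the whole list. Of the WT clusters 45.04% (43.3% to 46.7%) overlapped an F125A cluster, against 45.2%. Between families the F125A share ran from 80.3% in the CUL genes to 89.2% in the FBXW genes, and all 6 intervals overlap. The WT share was lowest in the FBXL genes, 37.5% (33.2% to 42.0%), and highest in the FBXO genes, 50.6% (46.5% to 54.6%). Without FBXL17 the FBXL share was 47.5% (41.6% to 53.5%), and without FBXO17 the FBXO share was 46.4% (42.2% to 50.7%), and both intervals include the share of the whole list. Gene by gene, the WT share ran from 23.3% to 87.5% over the 63 genes with a median of 47.5%, and the F125A share from 50% to 100% with a median of 87.0%. Where a gene has few F125A clusters beside its WT clusters, its WT share is bound to be low. The low WT shares of FBXL17, TRIM44, FBXW8 and KLHL3 therefore largely restate their ratios. In 11 of the 63 genes every F125A cluster had a WT partner, and in none did every WT cluster have an F125A partner. The same gene-by-gene shares and counts over all genes are not given here, so these have no background beside them.

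**Figure D4:**
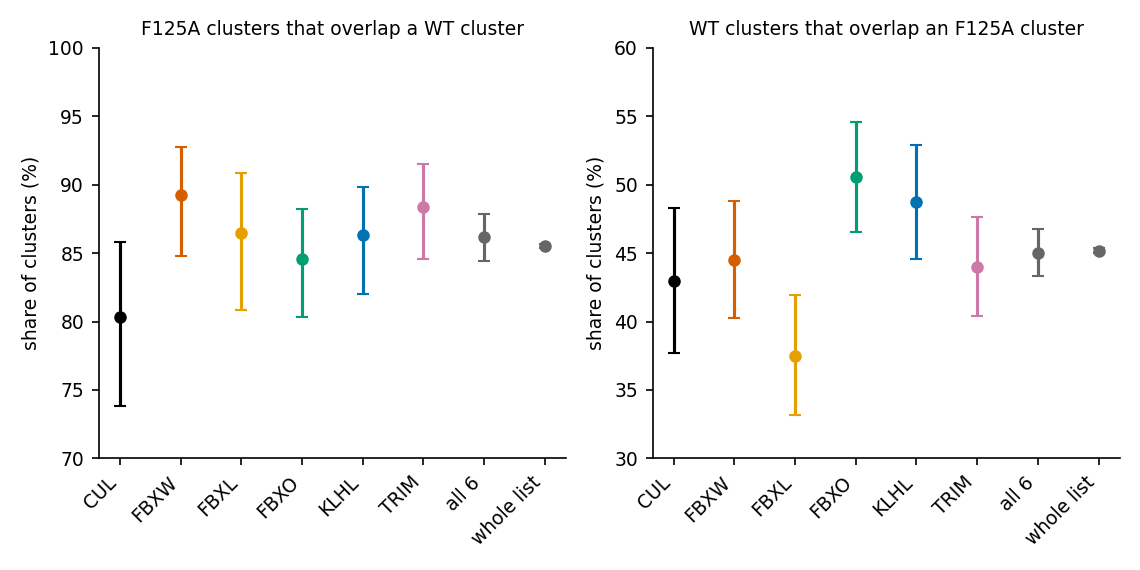
Share (%) of F125A clusters overlapping a WT cluster (left, axis from 70% to 100%) and of WT clusters overlapping an F125A cluster (right, axis from 30% to 60%) by family, for all 6 families and for the whole list, with exact 95% binomial intervals. On the left every interval includes the 85.5% of the whole list and the CUL point is lowest at 80.3%; on the right FBXL lies below at 37.5% and FBXO above at 50.6%.

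Clusters without a partner lay at different distances in the 2 lists. The 231 F125A clusters without a WT partner lay a median of 281 nt from the nearest WT cluster of their gene, 26.8% within 100 nt and 0.87% beyond 5 kb. The 1827 WT clusters without an F125A partner lay a median of 1106 nt from the nearest F125A cluster, 11.9% within 100 nt and 17.3% beyond 5 kb. Among these, 4 F125A and 19 WT clusters were in genes without a cluster in the other list and so have no such distance. The percentages are of all 231 and 1827 clusters, and distances over the whole lists are not given here. The WT list is 1.95 times as long, so its clusters lie closer together (median gap 705 nt, against 1095 nt between F125A clusters). The part that this plays was not tested.

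Cluster lengths were those of the lists. The median was 61 nt in WT (quartiles 48 and 76, range 22 to 189) and 64 nt in F125A (51 and 81, 23 to 179), against 60 and 64 nt in the whole lists. WT clusters with an F125A partner had a median of 64 nt and those without 58 nt, whereas F125A clusters had 64 nt with a partner and 68 nt without. A total of 37 clusters had the same bounds in both lists, 1.11% of WT clusters and 2.21% of F125A clusters. In the whole lists the shares were 1.86% and 3.62%, or 0.98% and 1.93% without a stretch of rows that is identical in both lists. That stretch holds no cluster that names one of these genes alone. The longest lay in KLHL29 (189 nt) and TRIM33 (188 nt) in the WT list and in TRIM25 (179 nt) and TRIM26 (177 nt) in the F125A list.

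Pooled over genes, clusters of the ligase genes lay in the 5′ 50% of the gene more often than those of all genes. The share was 62.8% (61.1% to 64.4%) in WT against 59.8%, and 65.8% (63.5% to 68.1%) in F125A against 60.7%. Some genes with many clusters carried part of this: FBXW7 had 75.6% of its WT and 82.7% of its F125A clusters there, FBXL17 74.0% and 83.7%, and FBXO34 all of them. CUL1, which had more clusters than FBXO34, had 56.3% and 58.6% there. Without FBXL17, FBXW7 and FBXW11 the shares were 60.3% (58.5% to 62.1%) and 63.3% (60.8% to 65.8%). Counting each gene once, the median share over the 63 genes was 59.1% in WT and 62.5% in F125A, against 59.3% and 60% over all genes tested. In the first 10% of the gene lay 14.5% of WT (13.3% to 15.7%) and 17.0% of F125A clusters (15.3% to 18.9%), against 13.9% and 15.7%. The cullins had 8.76% and 10.9% there, and the KLHL genes 16% and 21.5%. Within 1 kb of the start lay 1.65% of WT and 2.99% of F125A clusters, against 1.96% and 3.37%. Per length of gene, the set held 3.96 WT and 1.99 F125A clusters per 10 kb, against 3.38 and 1.72 over all genes.

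The ratio went with gene length, in the ligase genes as in all genes. Spearman's rho was 0.66 across the 63 genes and 0.57 across all 5626, given as a description since the genes share the same libraries. In the sets described below it was lower. It was 0.28 for ubiquitin-specific protease and E2 enzyme genes, 0.03 for core subunits and regulators, and 0.39 for relatives under other names. All 14 ligase genes under 30 kb had a ratio below 0, with a median of -0.42 against -0.50 for all genes of that size. Of 28 genes between 30 and 100 kb 13 lay above 0 (median -0.05, all genes -0.11), and of 21 genes over 100 kb 16 lay above 0 (median 0.12, all genes 0.19). The shares of all genes above or below 0 in these size classes are not given here, only their medians. When the median of genes of similar length was subtracted, the median of the 63 genes was 0.03 and none reached 2-fold either way, against backgrounds of 2.04% toward WT and 0.462% toward F125A. FBXL17 then had 0.65, TRIM44 0.81 and FBXW8 0.76, and FBXO17 and KLHL15 had -0.54 and -0.70. TRIM11 moved from -0.84 to -0.12, TRIM65 from -0.88 to -0.40 and TRIM27 from -0.86 to -0.38. KLHL29 moved the other way, from -0.32 to -0.63, and FBXO9 from 0.52 to 0.81.

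**Figure D5:**
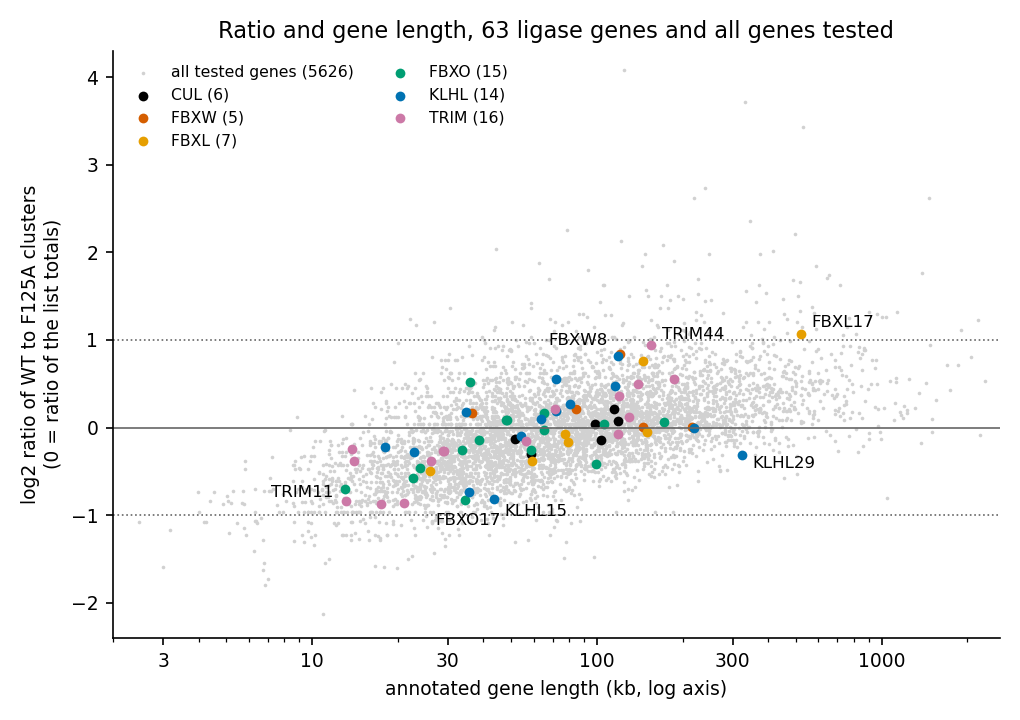
Log2 ratio of WT to F125A clusters (0 is the ratio of the list totals) against annotated gene length in kb (log axis), for the 63 ligase genes tested (coloured) and all 5626 genes tested (grey); dotted lines mark 2-fold. All coloured points under 30 kb lie below 0, FBXL17 is the one beyond a dotted line, and KLHL29 lies below 0 despite its length.

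The partners of these proteins were compared by the same log2 ratio. Of 35 core subunits and regulators of cullin ligases 33 had clusters, and of the 21 tested 7 lay above 0, 14 below and none past 2-fold, with a median of -0.20 (-0.31 to 0.14), or 0.07 when corrected for length. ARIH1, a RING-between-RING ligase that works with neddylated cullins, had 189 WT and 120 F125A clusters (-0.31), CAND1, the adaptor exchange factor, 62 and 40 (-0.34), and RBX1, the RING subunit, 34 and 18 (-0.08). COPS2, of the deneddylating COP9 signalosome, had 26 and 8 (0.62, -0.45 to 2.09, and 0.91 after correction for length). ANAPC2, the cullin-like subunit of the anaphase-promoting complex, had 26 and 26 (-0.96, -1.80 to -0.12, and -0.24 after correction for length). NEDD8, the modifier that activates cullins, had no cluster that named it alone, and clusters that name several genes were not counted. The 33 core genes and regulators were denser than the ligase genes, with 8.58 WT clusters per 10 kb against 3.96. Of their WT clusters 50.9% (47.8% to 54.0%) had an F125A partner, against 45.04% (43.3% to 46.7%) in the ligase genes. Of 62 adaptors and TRIM relatives under other names 57 had clusters. The 34 tested had a median of -0.08, with 14 above 0 and 20 below. Of these 34, 2 reached 2-fold toward WT, against a background of 2.51% of all genes. They were LMO7 with 52 and 9 (1.44, 0.53 to 2.77) and ASB3, a SOCS-box protein, with 62 and 15 (1.01, 0.25 to 2.01). After correction for length LMO7 had 1.24 and ASB3 fell short of 2-fold (0.93). BTRC, the paralogue of FBXW11, had 153 and 74 clusters (0.08) and SKP2, the adaptor for p27, 44 and 27 (-0.28).

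The ubiquitin-specific protease and E2 enzyme genes, which remove or carry ubiquitin, were taken as the most similar set. They had 3988 WT and 2083 F125A clusters in 76 genes, a median log2 ratio of 0.03 over 55 genes tested (29 above 0 and 26 below), and none past 2-fold either way. Of their F125A clusters 87.5% and of their WT clusters 47.2% had a partner, and the interval of the WT share (45.6% to 48.7%) overlaps that of the ligase genes. Per length of gene these protease and E2 genes were denser, with 7.01 WT and 3.66 F125A clusters per 10 kb, against 3.96 and 1.99 in the ligase genes.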

How the data were processed

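Nuclease-protected RNA from FLAG-Rbfox1 complexes was sequenced after linker ligation, reverse transcription with 4-nt identifiers and selection of 20 to 80 nt inserts, per the labels' protocols. The submitters' processing notes name cutadapt, STAR and hg38. Not given in the sources used here are versions, the cluster caller, its threshold, the pooling of libraries and the use of the control. Replicates bear numbers, with no word on separate cultures.

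The deposited lists, 1 for each Rbfox1 group, give places and gene names per the file headers. They hold no read counts, so the depth behind a cluster is unknown, and no column of per-sample values was left unused (0). Repeated rows were dropped (58 WT and 27 F125A in the ligase genes), and 13 clusters a list that name several genes including one of these, in a stretch identical in both lists, were left out. Gene places, promoter windows and microRNAs came from RefSeq GRCh38.p14, which shares hg38's primary coordinates. Ratios, overlap (1 nt, same strand) and exact Clopper-Pearson 95% intervals were computed with Python 3.11.15, pandas 2.3.3 and scipy 1.17.1, and tested on simulated data. The length correction subtracts the median of genes in the same of 20 bins of length. A ratio's interval was converted from that of the gene's WT share of clusters, without the added 1.

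Named by rule were, per family, the 3 genes with most clusters; the 5 highest and 5 lowest ratios; genes past 2-fold; genes with at least 5 clusters in 1 list only; and the 3 densest genes. Others were chosen after their values were seen. The genes and lists were chosen with earlier results of these data known.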

Additional observations from a re-analysis of the deposited data

How the results depend on the processing

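Merging clusters closer than 50 nt gave median lengths of 64 nt in WT and 67 nt in F125A. Counting clusters within 50 nt as overlapping gave 88.6% of F125A and 48.8% of WT clusters with a partner. The number of genes past 2-fold toward WT was 0 with merging (FBXL17 had 0.98), 0 with 5 added to each count and 0 after length correction. With a minimum of 10 clusters it was 4 toward WT (FBXL17, FBXO8, TRIM23 and TRIM36) and 1 toward F125A (FBXL14), against 3.47% and 3.61% of all genes at that minimum. Adding 5 left 17 genes above 0 and 46 below, and moved the median of all genes to -0.16. Length correction left 35 above and 26 below. The median ratio stayed between -0.11 and 0.03 over the alternatives run, and the share in the first 10% of the gene moved by less than its counting error in genes over 50 kb. Merging left 2913 WT and 1482 F125A clusters, and keeping repeated rows gave 3382 and 1701. Leaving out FBXL17, FBXO17 or KLHL15 from its family, and 3 genes from the set, were alternatives chosen after seeing the data. Without KLHL15 the WT overlap of the KLHL genes was 44.9% in place of 48.7%.

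No paired analysis was possible because each group has 1 list, although the labels number the libraries. No values without single libraries exist for the same reason. Without read counts, weak and strong clusters weigh alike, and without a genome most cluster sequences were not analysed here.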
